A study of Rattus norvegicus with 12 samples.

Results

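The miR-30 family was represented by 6 of the 420 rat miRNA probes counted in plasma. These were the probes named rno-miR-30a, rno-miR-30b-5p, rno-miR-30b-3p, rno-miR-30c, rno-miR-30d and rno-miR-30e, taken by name alone because, once the species prefix and any arm ending were removed, they read miR-30a to miR-30e. Plasma came from 12 female Wistar rats, with 1 sample per rat: 6 were non-pregnant controls and 6 were pregnant, killed at gestation day E14.5. The labels name no treatment and no genetic change in either group. The control rats were 239, 269, 110, 111, 112 and 112 days old (rats 1 to 6), and the pregnant rats were 269, 103, 373, 104, 110 and 110 days old. Counts were read on the NanoString nCounter, in which a tagged miRNA is hybridised to a capture probe and a barcoded reporter probe and every imaged barcode adds a count.

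MicroRNAs are short RNAs that guide a silencing complex to messenger RNAs, mainly through the seed, the bases near the 5′ end that pair with the target. The miR-30 family is a set of miRNAs with the same seed, made from 3 pairs of neighbouring hairpins. It is widely expressed, including in heart, kidney and endothelium, and is known for targeting autophagy, cell adhesion and epithelial differentiation genes. Circulating copies travel in vesicles or bound to proteins, and in plasma the number of releasing cells and the amount released by each cannot be told apart.

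The mature sequences show how closely the members are related, which bears on what a hybridisation probe can separate. They are printed 5′ to 3′ from RefSeq (assembly GRCr8), with the seed, bases 2 to 8, in capitals. The probes of miR-30a, miR-30c, miR-30d and miR-30e are named without an arm, and under the older naming such a name stood for the 5p arm, so those entries are shown. Probe sequences were not used here. RefSeq entries for miR-30a, miR-30c and miR-30e were matched, and the mature sequences of miR-30b and miR-30d are not shown. The entry of rno-miR-384-5p is added because it has the same seed outside the family's names.
rno-miR-30a-5p: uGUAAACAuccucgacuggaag
rno-miR-30e-5p: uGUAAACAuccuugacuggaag
rno-miR-30c-5p: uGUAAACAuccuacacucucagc
rno-miR-384-5p: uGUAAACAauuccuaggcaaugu

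The seed GUAAACA was held by 4 of the 693 mature names searched, the 4 shown. Neither miR-30b nor miR-30d was among the names searched, so this count says nothing of their seed. The member rno-miR-30b-3p is a 3p arm taken by name, and the 3p arm of miR-30a had a different seed. Counted from the 5′ end, rno-miR-30a-5p and rno-miR-30e-5p differed at 1 of 22 positions, C13U, with the base of miR-30a first. rno-miR-30a-5p and rno-miR-30c-5p differed at 5 of 22 positions, all after the seed. rno-miR-384-5p differed from rno-miR-30a-5p at 10 of 22 positions, again outside the seed. How far the probes of these near-identical members pick up each other's miRNA was not tested, so a count of rno-miR-30a or rno-miR-30e is uncertain to that extent.

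In GRCr8 the hairpins lay in 3 pairs. Mir30a (chr9:33233941-33234011) and Mir30c2 (chr9:33253682-33253765) were separated by 19670 bases. No other gene in the table spanned Mir30a, while Mir30c2 lay within the spans of the pseudogene Rbx1-ps1 and the lncRNA LOC134480562. Mir30b (chr7:102021543-102021629) and Mir30d (chr7:102025345-102025426) were 3715 bases apart, both within the span of the lncRNA LOC102551574. Mir30c1 (chr5:139634455-139634543) and Mir30e (chr5:139637450-139637541) were 2906 bases apart, both within the span of the protein-coding gene Nfyc, a subunit of the transcription factor NF-Y. The table gives gene spans only, so exon and intron positions are not given.

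Endogenous counts summed to between 6969 and 10176 per control rat and between 5163 and 30301 per pregnant rat. Pregnant rats 5 and 6 stood apart, with totals of 24010 and 30301, against 13102 in the next highest rat. The smallest value in the table was 1, which could not be told apart from 0. No pair of rats had identical counts. Each rat gave 1 sample and was taken as a replicate. Counts of the instrument's negative control probes were not used here. Background in each rat was instead taken as the mean + 1 SD of 4 exogenous (plant and worm) miRNA probes for which no spike-in was added, and it lay between 12.6 and 32.4 counts.

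The 6 probes covered the range from well-counted to undetected. rno-miR-30b-5p, the dominant arm of its hairpin, ranked 46th of the 420 probes by mean raw count. rno-miR-30d, encoded beside it, ranked 72nd, rno-miR-30a 119th and rno-miR-30e 227th. rno-miR-30b-3p, the passenger arm of the miR-30b hairpin, ranked 365th and rno-miR-30c 407th. Probes differ in how well they hybridise, so this order is one of counts and not of molecules. Together the 6 probes made up 0.683% ± 0.184 (SD, n = 6) of endogenous counts in control rats and 0.703% ± 0.275 (SD, n = 6) in pregnant rats. The lowest share was 0.351% in pregnant rat 3 (95% exact binomial interval 0.257% to 0.468%) and the highest was 1.17% in pregnant rat 5 (1.04% to 1.32%). Pregnant rat 6, with the highest total of all, had 0.812% (0.714% to 0.919%), below control rats 1 and 6, and the groups overlapped. All intervals on counts here cover counting error only.

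**Figure D1:**
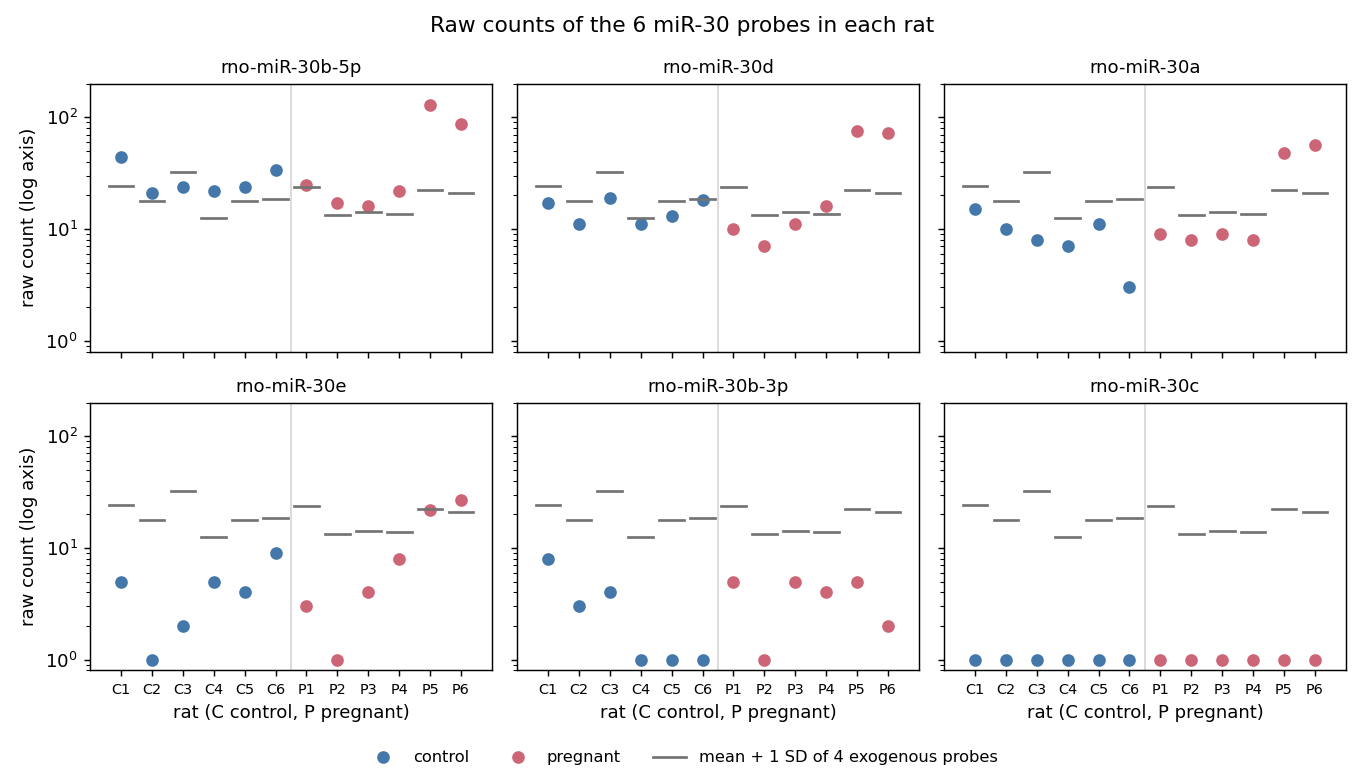
Raw counts (log axis) of the 6 miR-30 probes in control rats C1 to C6 and pregnant rats P1 to P6, with a grey line at each rat's background, the mean + 1 SD of 4 exogenous probes. P5 and P6 had the highest counts of rno-miR-30b-5p, rno-miR-30d, rno-miR-30a and rno-miR-30e, and rno-miR-30c was at 1 in all 12 rats.

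For rno-miR-30b-5p, raw counts in control rats 1 to 6 were 44, 21, 24, 22, 24 and 34. In pregnant rats 1 to 6 they were 25, 17, 16, 22, 130 and 87. The upper end of the pregnant group came from rats 5 and 6, while the other 4 pregnant rats lay at or below 25 counts, and the groups overlapped. This was the member nearest to being detected throughout: its count was above background in 11 of 12 rats, the exception being control rat 3 with 24 counts against a background of 32.4. Per 1000 endogenous counts it stood at 3.20 ± 1.04 (SD, n = 6) in control rats and 2.98 ± 1.39 (SD, n = 6) in pregnant rats. On that scale pregnant rat 5, at 5.41, was still the highest, but pregnant rat 6, at 2.87, lay inside the control range of 2.09 to 4.47.

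The neighbouring rno-miR-30d had 17, 11, 19, 11, 13 and 18 raw counts in control rats 1 to 6 and 10, 7, 11, 16, 76 and 72 in pregnant rats 1 to 6. Again pregnant rats 5 and 6 were far above all others and the remaining 4 pregnant rats lay within or below the control range. Only pregnant rats 4, 5 and 6 were above background, so no control rat had a detected count. Per 1000 endogenous counts, pregnant rats 5 and 6 had 3.17 and 2.38, both above the highest control value of 2.29, which was a narrow margin for rat 6.

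For rno-miR-30a, which shares its seed and all but 1 base with rno-miR-30e, raw counts were 15, 10, 8, 7, 11 and 3 in control rats 1 to 6. They were 9, 8, 9, 8, 48 and 57 in pregnant rats 1 to 6. The 2 high counts, 48 (95% exact Poisson interval 35.4 to 63.6) and 57 (43.2 to 73.9), lay above that of the highest control rat, 15 (8.40 to 24.7). They were also the only values above background. The other 4 pregnant rats had 8 or 9 counts, a spread smaller than in the control group. Per 1000 endogenous counts pregnant rat 6 had 1.88 and pregnant rat 5 slightly more, against a highest control value of 1.58 and 1.55 in pregnant rat 2, so the gap was smaller on that scale than in raw counts.

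rno-miR-30e had 5, 1, 2, 5, 4 and 9 raw counts in control rats 1 to 6 and 3, 1, 4, 8, 22 and 27 in pregnant rats 1 to 6. Only pregnant rat 6 was above its background, by 6.1 counts, and pregnant rat 5 lay 0.5 below. Scaled per 1000 endogenous counts, every pregnant rat was below the highest control value of 1.15, the pregnant maximum being 0.916. The order of the rats in rno-miR-30e thus depended on the scaling.

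The last pair of probes gave almost no signal. rno-miR-30b-3p had 8, 3, 4, 1, 1 and 1 raw counts in control rats and 5, 1, 5, 4, 5 and 2 in pregnant rats, never above background. Unlike the opposite arm, it did not exceed the control maximum in pregnant rats 5 and 6. rno-miR-30c was at 1 in all 12 rats, as were 14 of the 420 probes (3.33%). No fold is given for rno-miR-30c, and what its level was cannot be said from these counts. The seed-sharing rno-miR-384-5p had between 2 and 6 counts in control rats and between 1 and 5 in pregnant rats, all below background, with 1 and 4 counts in pregnant rats 5 and 6. rno-miR-384-3p, from the same hairpin, had between 1 and 8 counts.

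At mean + 1 SD, 0 of the 6 miR-30 probes were above background in all 12 rats, beside 38 of the 420 endogenous probes (9.05%). In at least 1 rat 4 were above it, rno-miR-30b-5p, rno-miR-30d, rno-miR-30a and rno-miR-30e. With the mean as the level, rno-miR-30b-5p passed in all 12 rats, beside 80 of the 420 probes (19.0%).

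Whether levels differed with pregnancy was tested with edgeR's quasi-likelihood test on the counts, with TMM scaling, over the probes that reached 10 counts in 6 or more rats. This filter left 187 probes and 2 of the 6 members, rno-miR-30b-5p and rno-miR-30d. None of the 187 probes passed an adjusted p of 0.05 (0%), members included. Before adjustment 11 of 187 (5.88%) were under 0.05, with 0 of the 2 members among them. For rno-miR-30b-5p the log2 fold change, pregnant over control, was 0.51 (SE 0.36, 95% interval -0.25 to 1.27, edgeR adjusted p = 0.732). TMM-scaled counts normalised to a common library (CPM) had a mean of 3015 ± 716 (SD, n = 6) in control rats and 4221 ± 2832 (SD, n = 6) in pregnant rats. For rno-miR-30d the log2 fold change was 0.82 (SE 0.41, interval -0.05 to 1.69, edgeR adjusted p = 0.732), with 1590 ± 253 CPM (SD, n = 6) against 2682 ± 2046 CPM (SD, n = 6). In both the pregnant SD was several times the control SD. Both fold changes were above 0, as were those of 104 of the 187 tested probes (55.6%).

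The members outside the filter were read from the same fit on all 420 probes, where again none passed the adjusted threshold (0%) and 20 (4.76%) were under 0.05 before adjustment, 1 of the 6 miR-30 probes among them, rno-miR-30a. That probe had a log2 fold change of 1.16 (SE 0.45, interval 0.20 to 2.11, edgeR adjusted p = 0.835). Its CPM averaged 988 ± 439 (SD, n = 6) in control rats and 1956 ± 1414 (SD, n = 6) in pregnant rats. A two-sided exact permutation test of its log2 CPM over all 924 assignments of 6 of the 12 rats gave p = 0.167. rno-miR-30e had a log2 fold change of 1.16 (SE 0.56, interval -0.03 to 2.35, edgeR adjusted p = 0.835) and an exact permutation p of 0.290. For rno-miR-30b-3p the log2 fold change was 0.22 (SE 0.48, interval -0.80 to 1.24, edgeR adjusted p = 0.996). Of the 6 members, 5 had a fitted log2 fold change above 0, beside 238 of the 420 probes (56.7%), and the median of the 6 was 0.74 beside 0.06 over all 420. The exception was rno-miR-30c, whose fitted value of -0.06 comes from a count of 1 in every rat and is no measured difference. Without the 14 probes at 1 in all rats, 5 of 5 members and 238 of 406 probes (58.6%) were above 0, with medians of 0.89 and 0.08. Members share their rats, so the 5 are not independent of each other.

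These values depended on pregnant rats 5 and 6 in all of these 5 but rno-miR-30b-3p. Without both, a choice made once the data were known, log2 fold changes in that fit were 0.07 for rno-miR-30a, 0.04 for rno-miR-30e, -0.33 for rno-miR-30b-5p, -0.26 for rno-miR-30d and 0.46 for rno-miR-30b-3p. The scaling mattered as well. With library size in place of TMM the median log2 fold change of all 420 probes moved from 0.06 to -0.42, and those of the members were 0.43, 0.35, -0.09, 0.12 and -0.27 in the same order. Relative to that median, each of the 5 stayed above 0, between 0.15 for rno-miR-30b-3p and 0.86 for rno-miR-30a.

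**Figure D2:**
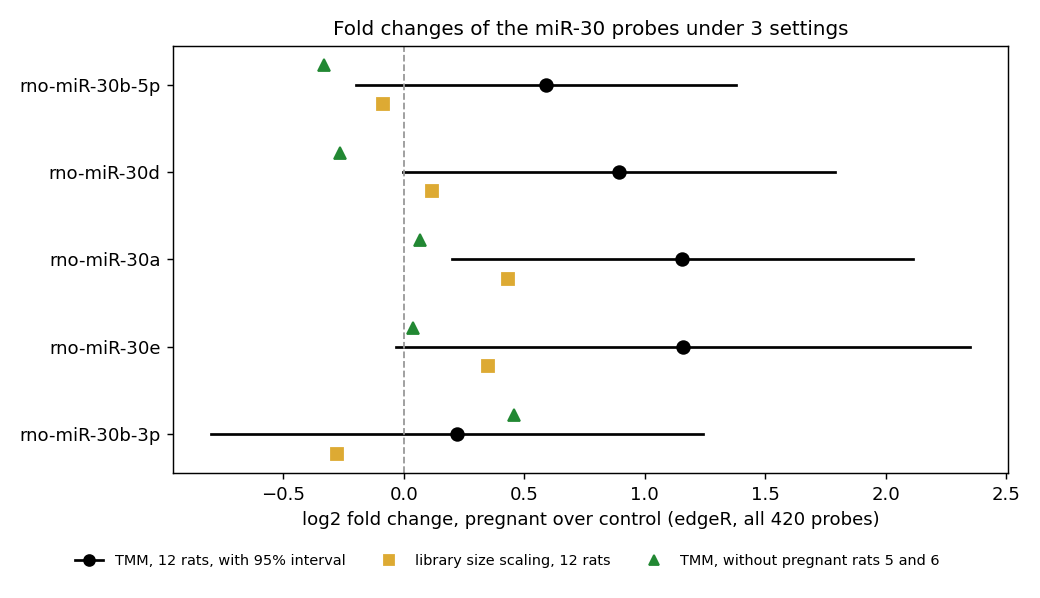
Log2 fold change (pregnant over control, edgeR on all 420 probes) of the 5 miR-30 probes that exceeded 1 count: circles with 95% intervals show TMM scaling in 12 rats, squares library size scaling, and triangles TMM without pregnant rats 5 and 6. rno-miR-30a goes from 1.16 to 0.43 and 0.07, and rno-miR-30b-5p falls below 0 in both alternatives.

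Raw counts of 12 miRNAs taken as markers of blood cells and organs were read in pregnant rats 5 and 6. They are not scaled for the totals of those rats, 24010 and 30301, against at most 10176 in control rats. How many of all 420 probes lay above the control range in both rats was not counted. The summed red blood cell markers miR-144 and miR-451 had 2672 and 1406 counts in pregnant rats 5 and 6, against 149 to 737 in control rats. The platelet and endothelial marker miR-126 and miR-223, a miRNA of platelets and granulocytes, together had 489 and 841, against 64 to 167. The kidney and gut epithelial pair miR-192 and miR-194 had 150 and 132 against 17 to 31, with miR-194 never above 6 counts. The lymphocyte marker miR-150 had 1815 and 1878 against 151 to 591. The hepatocyte marker miR-122 had 1071 and 5397 against 115 to 2632, and the 4 muscle miRNAs miR-1, miR-133a, miR-133b and miR-206 together 305 and 156 against 90 to 167. Of the 10 marker probes tested, 0 passed the adjusted threshold in edgeR. Before adjustment 2 were under 0.05, miR-144 and miR-192, beside 11 of all 187 tested probes (5.88%). The part of these sources, and of the higher totals, in the miR-30 counts was not tested.

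Ratios of each member to rno-miR-30b-5p within a rat do not depend on scaling, and were picked with the counts already known. They are taken on raw counts, of which few were above background: those of rno-miR-30d in 3 of 12 rats, rno-miR-30a in 2, rno-miR-30e in 1 and rno-miR-30b-3p in 0. They therefore largely set counts at background level against rno-miR-30b-5p. In all 12 rats the other 4 probes that ever exceeded 1 count had fewer counts than rno-miR-30b-5p. The log2 ratio of rno-miR-30d was -0.91 ± 0.33 (SD, n = 6) in control rats and -0.77 ± 0.44 (SD, n = 6) in pregnant rats (exact permutation p = 0.548, adjusted over 4 ratios 0.730). For rno-miR-30a it was -1.75 ± 0.89 (SD, n = 6) and -1.15 ± 0.37 (SD, n = 6), with an exact permutation p of 0.123 (adjusted 0.494), and the lowest value belonged to control rat 6, with 3 counts against 34. For rno-miR-30e and rno-miR-30b-3p the exact permutation p was 0.398 and 0.734 (adjusted 0.730 and 0.734). No ratio passed the threshold, which says little about the miRNAs where the counts are those of background.

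Across rats, log2 CPM of rno-miR-30b-5p and rno-miR-30d, the 2 members past the filter and neighbours on chromosome 7, had a Pearson r of 0.887 (permutation p = 0.00107) and a Spearman rho of 0.643 (permutation p = 0.0277) over 12 rats. Without the 2 rats farthest from the median, pregnant rats 5 and 6, r was 0.477 (permutation p = 0.166, n = 10), so the relation rested on those rats. Within the control rats r was 0.333 and within the pregnant rats 0.933 (n = 6 each), the latter again holding both high rats. All probes of a rat share its lane and its scaling factor.

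After the data had been seen, all 6 pairs among rno-miR-30a, rno-miR-30b-5p, rno-miR-30d and rno-miR-30e were set side by side. Over 12 rats Pearson r ran from 0.452 (rno-miR-30a and rno-miR-30e, whose sequences are shown above; permutation p = 0.140, adjusted 0.140) to 0.887. In the other 5 pairs the adjusted permutation p was between 0.00345 and 0.0176. Spearman rho over the 6 pairs ran from 0.336 to 0.727, with 2 of 6 pairs under 0.05 (adjusted permutation p from 0.0386 to 0.285). The 2 rats farthest from the median of rno-miR-30a were control rat 6 and pregnant rat 6, and without them r of its 3 pairs was 0.905 with rno-miR-30b-5p, 0.788 with rno-miR-30d and 0.594 with rno-miR-30e. Without pregnant rats 5 and 6, r ran from -0.291 to 0.626 and 0 of 6 pairs passed, the lowest adjusted permutation p being 0.317. With library size scaling r ran from 0.007 for rno-miR-30a and rno-miR-30e (adjusted permutation p = 0.983) to 0.775 for rno-miR-30b-5p and rno-miR-30d (adjusted 0.0168). The next lowest adjusted permutation p was 0.0535, for rno-miR-30d and rno-miR-30e (r = 0.667).

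**Figure D3:**
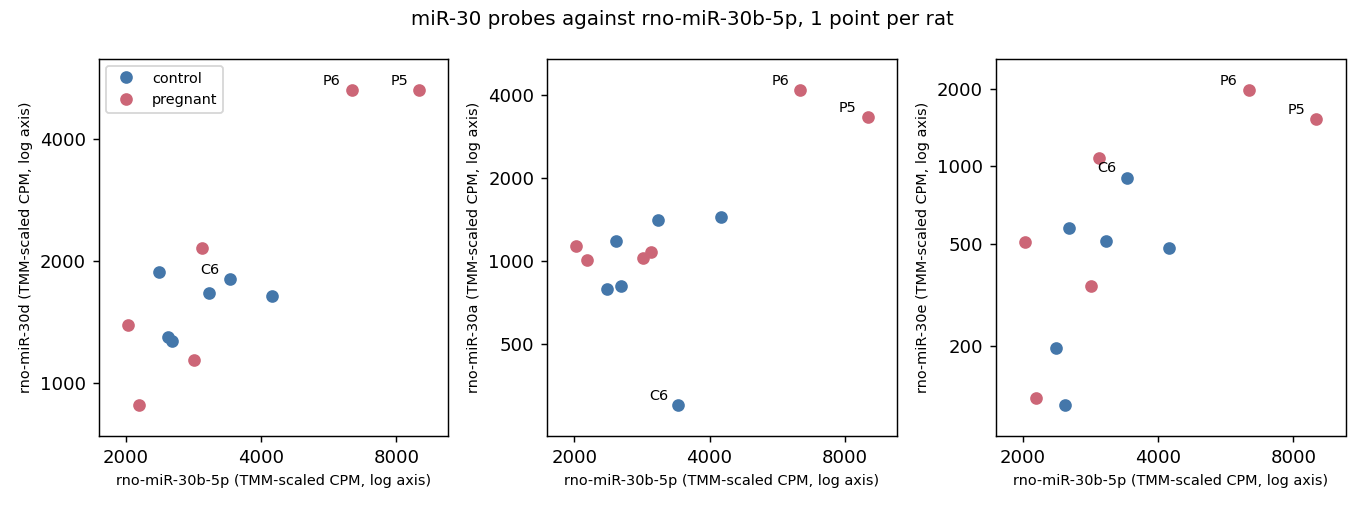
TMM-scaled CPM (log axes) of rno-miR-30d, rno-miR-30a and rno-miR-30e against rno-miR-30b-5p, with 1 point per rat and pregnant rats 5 and 6 (P5, P6) and control rat 6 (C6) labelled. P5 and P6 lie at the upper right in each panel, and C6 is the lowest point for rno-miR-30a, at 300.3 CPM.

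The 5 tested probes most like rno-miR-30a over the 12 rats, by Pearson r of log2 CPM, were rno-miR-21 (0.918), rno-miR-144 (0.867), rno-miR-450a (0.785), rno-miR-125b-5p (0.764) and rno-miR-29c (0.761). rno-miR-144 is a red blood cell miRNA, and rno-miR-21 is abundant in many tissues. Without pregnant rats 5 and 6 the same r was 0.792 for rno-miR-21 and 0.560 for rno-miR-144, and between 0.235 and 0.295 for the other three. With library size scaling, rno-miR-21 (0.796), rno-miR-144 (0.696) and rno-miR-125b-5p (0.614) stayed among the top 5, and rno-miR-145 (0.587) and rno-miR-126 (0.510) took the places of rno-miR-450a and rno-miR-29c. Of the other miR-30 probes only rno-miR-30b-5p and rno-miR-30d were tested and so compared, and neither was among the 5 under either scaling. These values describe rats that share lanes and scaling and carry no test.

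The analysis options of the instrument's software were then followed for the family through 14 workflows, which combine no correction, subtraction or thresholding of background at 3 levels with normalisation to NormFinder-selected probes or to all detected probes (total RNA). The stand-in background above was used in each. By a two-sided exact permutation test of the processed values, 54 of the 420 probes (12.9%) were under 0.05 in at least 1 workflow, and 1 of the 6 miR-30 probes was. That was rno-miR-30d in workflow 7 (subtraction of mean + 1 SD, total RNA), with a mean of 9.75 ± 12.3 (SD, n = 6) in pregnant rats and 1.26 ± 0.249 (SD, n = 6) in control rats, a ratio of 7.73 (exact permutation p = 0.0195, adjusted within the workflow 0.963). All 6 control values there were at the floor left by the subtraction, so the ratio compares counts above background with the floor. No probe passed after adjustment in any workflow. The paper lists miR-30a as enriched in pregnant rats, in workflow 12 only (thresholding at mean + 2 SD, total RNA). That call was not reproduced here: in workflow 12 rno-miR-30a had a ratio of 0.880 (exact permutation p = 0.565). The background, the positive control factor and the normalisers here differed from those of the paper. Which of these accounts for the difference was not tested.

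The ratio of group means varied widely with the background step. For rno-miR-30d it ran from 0.968 (workflow 12) to 11.6 (workflow 4), and exact permutation p from 0.0195 to 0.868. For rno-miR-30a, with exact permutation p of 0.0649 to 0.952, it ran from 0.880 to 9.37, the largest values coming from the 6 subtraction workflows, in which every control value was at the floor. rno-miR-30b-5p, the member with the most counts, was above 1 in all 14 workflows, from 1.05 to 4.10 (exact permutation p 0.390 to 0.848). rno-miR-30e was above 1 in 7 of 14. In workflows 3, 6, 9, 10, 12 and 13, all below 1, its values equalled those of rno-miR-30c. rno-miR-30b-3p ran from 0.767 to 1.19, but differed from rno-miR-30c only in workflows 1 and 2, without background correction (1.17 and 1.19). rno-miR-30c, with 1 raw count in every rat, still gave ratios from 0.767 to 0.988, which are the normalisation factors or the threshold itself and not a level of the miRNA.

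**Figure D4:**
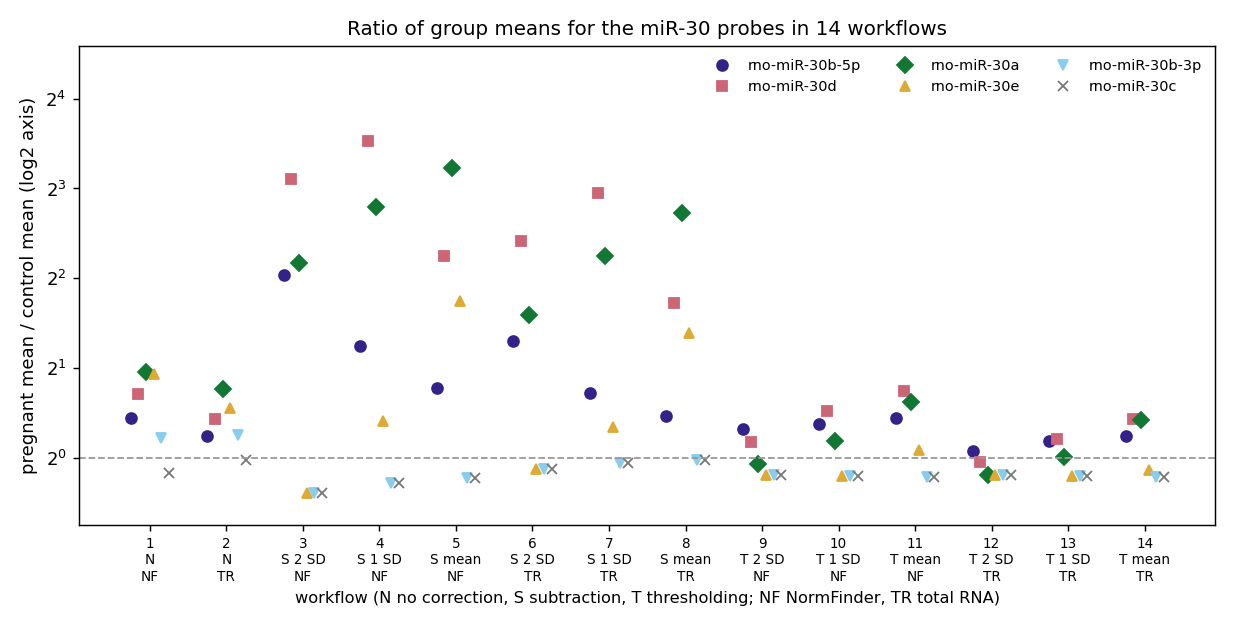
Ratio of the pregnant to the control mean (log2 axis) of each miR-30 probe in the 14 workflows, labelled by background step, its level and normaliser. Subtraction (workflows 3 to 8) gave the highest ratios of rno-miR-30d and rno-miR-30a, up to 11.6 and 9.37, and thresholding (9 to 14) gave ratios between 0.863 and 1.68.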

How the data were processed

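Per the labels, RNA was prepared from 1.5 ml of plasma freed of platelets by centrifugation, and counted with the rat v1.5 miRNA codeset. The authors deposited raw counts per probe, not corrected for background or normalised. The table holds 420 endogenous, 5 exogenous and 4 mRNA probes. The members, the gene lists and the stand-in background were chosen with earlier results of these data known.

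edgeR 4.0.16 (R 4.3.3) was run with TMM and Benjamini-Hochberg adjustment over the 187 probes that reached 10 counts in 6 or more rats, and over all 420 for the members outside that filter. The TMM factors came from the tested probes. A standard error is the size of the log2 fold change over the square root of F. DESeq2 1.42.0 and limma 3.58.1 served as alternatives. CPM used a prior count of 1 on the log2 scale. Correlations used 100000 permutations. Workflows followed the published order of steps with a positive control factor of 1, 38 total RNA normalisers and 5 NormFinder normalisers. The 5 were rno-miR-450a, rno-miR-449c-3p, rno-miR-455, rno-miR-3596c and rno-miR-3594-5p. Neither rno-miR-27b nor the shared rno-miR-20a probe, the most stable in the paper, was among them. The paper lists miR-450a as raised in pregnancy by RT-qPCR, and here its log2 fold change was 0.75 (edgeR adjusted p = 0.670). How far this moved the NormFinder-normalised ratios was not tested. The scripts were tested on simulated data.

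Probes named in the text are the members, probes with the same seed, the 5 probes most like rno-miR-30a, and the markers. Replicate numbers are names only: deviations of same-numbered rats correlated between -0.33 and 0.26. Columns of per-sample values left unused numbered 0. Alternatives covered scaling, filter, tool, age class, replicate block, background level, stand-in and leaving out each rat.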

Additional observations from a re-analysis of the deposited data

How the results depend on the processing

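No miR-30 probe passed an adjusted p of 0.05 in edgeR, DESeq2, limma or the exact permutation test under any of the 24 alternatives, the lowest adjusted p of a member being 0.325. Over all tested probes 0 passed as well, with 3 to 20 under 0.05 before adjustment, against 11. In the fit on all 420 probes, 0 to 3 members were under 0.05 before adjustment, beside 10 to 38 of all 420, with 0 in limma, in the exact permutation test, with library size, and without pregnant rat 5, pregnant rat 6 or both. Log2 fold changes below 0 came from library size for rno-miR-30b-5p (-0.087) and rno-miR-30b-3p (-0.27), and from leaving out pregnant rats 5 and 6 (chosen after the data had been seen) for rno-miR-30b-5p (-0.33) and rno-miR-30d (-0.27, among filtered probes). Leaving out 1 rat gave 0.11 to 0.63 for rno-miR-30b-5p, 0.46 to 0.95 for rno-miR-30d, 0.77 to 1.31 for rno-miR-30a, 0.77 to 1.45 for rno-miR-30e and 0.01 to 0.74 for rno-miR-30b-3p. The count of tested members higher in pregnant rats, 2 (beside 104 of 187 probes), was 1 with library size (26 of 187), 1 with at least 20 counts (1 member tested; 47 of 81), 5 with no filter (238 of 420) and 0 without rats 5 and 6 (74 of 169), and 2 whichever rat was left out. With the replicate block, log2 fold changes were 0.31 for rno-miR-30b-5p and 0.55 for rno-miR-30d, with 0 calls and 3 probes under 0.05 before adjustment. The same-numbered rats shared only a number, and 1 of 6 control rats correlated best with its own.

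With the mean of the stand-in as background, 1 member was above it in all 12 rats, against 0. The number of miR-30 calls over the 14 workflows counts a probe once for each workflow. Beside it stands the number of different probes called at least once. The miR-30 number, 1 (beside 54 of 420 probes), became 0 with the methods' t-test (39 probes) and 0 after Benjamini-Hochberg adjustment. It was 5 with 5 exogenous probes as the stand-in (321 probes) and 5 with 4 exogenous and 4 mRNA probes (267 probes), of which 4 of 5 in each case involved rno-miR-30b-3p or rno-miR-30c, both at the floor. Leaving out 1 rat gave 0 to 7 calls: 0 without any 1 control rat (36 to 55 probes), and 5, 5, 7 and 6 without pregnant rat 1, 2, 3 or 4 (59, 339, 49 and 44 probes). Without pregnant rat 1, 3 or 4 the calls came from rno-miR-30a, rno-miR-30d and rno-miR-30e only. Without pregnant rat 2 they were rno-miR-30d in workflows 4 and 7, and rno-miR-30b-3p, rno-miR-30c and rno-miR-30e in workflow 3. Those in workflow 3 were at the floor, with the same ratio of 0.554. Without both pregnant rats 5 and 6 the call was rno-miR-30b-5p in workflow 10, lower in pregnant rats (69 probes; ratio 0.708, exact permutation p = 0.0476). The correlation of rno-miR-30b-5p with rno-miR-30d was 0.477 without those rats, and 0.775 over all 12 rats with library size in place of TMM. At counts under 10, as in most rats for rno-miR-30a and rno-miR-30e, depth limits what could be detected.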
